A study of Mus musculus with 12 samples.

Results

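The synaptic vesicle release machinery is described here by 40 genes, chosen by name as vesicle proteins, SNARE proteins, calcium sensors and active zone proteins. All 40 were among the 29608 genes named on the non-control probes of the array, with 62 probes between them, and 39 were among the 17302 genes measured in every mouse. Syt2 was the exception. The gene encodes the fast calcium sensor of hindbrain and some inhibitory synapses, and in 0 of 12 mice did its only spot rise well above background, so no level is given for it. Of the 62 probes, 54 were kept, 7 were dim and 1 was marked as uneven or as an outlier, which left 27 genes with 1 probe and 12 genes with several.

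Cortex was profiled from 12 adult female mice of about 12 weeks, killed in diestrus, with 4 mice in each of 3 groups. MRL/lpr mice carry the lpr loss-of-function mutation of Fas on the MRL background and develop a lupus-like disease. Fn14ko mice, labelled Fn14koMRL, lack Fn14, the receptor for the cytokine TWEAK, on that same MRL/lpr background and were bred as littermates of the MRL/lpr mice. MRL/+ mice, labelled MRL/MpJ, have neither change, and they were bought from another breeder and are not littermates of the others. Bulk cortical RNA was measured, in which fewer cells of a type and less RNA per cell cannot be told apart. The 3 comparisons ask how these genes differ between lupus-prone and control cortex, and whether loss of Fn14 goes with a different level.

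At a nerve terminal, synapsins tether synaptic vesicles, and Rab3a with its effectors brings them to the active zone, where RIM and Munc13 proteins dock and prime them beside calcium channels. The vesicle SNARE synaptobrevin (Vamp1, Vamp2) and the plasma membrane SNAREs syntaxin 1 (Stx1a) and SNAP-25 (Snap25) zip together to fuse the membranes. Synaptotagmins and Doc2 proteins sense calcium, complexins clamp and assist the SNARE complex, and NSF with its SNAP adaptors takes the spent complex apart.

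Each probe is a 60-base oligonucleotide. For the members that passed the test in any comparison, the first 30 bases of the probe behind the result are shown, 5′ to 3′, since a single probe stands for the gene in each case but Syt3. Coordinates are those of the array annotation on mm9. Whether a probe lies in coding sequence or in a UTR was not analysed here.
Stx1a, chr5:135526477-135526536, plus strand: agcaggccatagtcctaacaggcatggtaa
Unc13b, chr4:43277637-43277696, plus strand: ccagtcaacacacgaaacaaaccaagcatc
Rims2, chr15:39513319-39513378, plus strand: aaactgttgtcacaacaaccagcgatacaa
Doc2b, chr11:75582645-75582704, minus strand: cacgaaacaatttttgtaatcttgtctgac
Syt17, chr7:125525530-125551561, minus strand: aaacgccagcctagtattcacagtgttcgg
Syt3, chr7:51654462-51654521, plus strand: actctgagcagcttcacaaagggtggcaaa
Syt3, chr7:51655255-51655314, plus strand: gtgaatgtcgacagaccaatccttgatgtc
Syt9, chr7:114691578-114691637, plus strand: tcaaagggaacctatgttcaaagttcagcc
Syn3, chr10:85518277-85518336, minus strand: gccaaggctgagacaatccgcaacctgagg
The Syt17 probe spans 26032 bases of the genome, so it reads a spliced transcript. No sequence is shown for Syt4.

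Signals are given in units of the median retained spot of the same mouse and dye, and they compare mice for 1 gene, not genes with each other. Tnfrsf12a, which encodes Fn14, had signals of 0.739, 0.777, 0.604 and 0.655 in the Fn14ko mice and of 1.86, 1.57, 1.90 and 1.38 in the MRL/lpr mice. The MRL/+ mice had 1.02, 1.18, 0.943 and 1.28. Its signal was thus lowest in the 4 Fn14ko mice, 2.41-fold below MRL/lpr (adjusted p = 0.00287 by limma), but still well above background in all of them. Against MRL/+ the log2 fold change of -0.67 did not pass (adjusted p = 0.104). Whether the probe lies in the deleted part is not given in the sources used here.

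Both mice on an array came from 1 group, in opposite dyes, and both arrays of a group lay on 1 slide, so the slide cannot be told apart from the group. The Cy5 channels of the MRL/+ slide (replicates 2 and 4) stood apart. There, only 35.0% and 21.2% of spots rose well above background, compared with 56.6% or more in the other 10 channels, and the dark control spots read 6.88 and 6.66 times the local background, against at most 2.74 times. For many of the members, differences from MRL/+ are therefore also given within each dye or without those mice. Among the members, 12 had no kept probe that was well above background in all 4 MRL/+ mice. Counting the best probe of each, they were Syn3, Syt6, Syt7, Syt9, Rims2 and Rph3a in 3, and Syt12, Cplx3, Rims1, Unc13a, Unc13b and Unc13c in 2. For these 12 members the size of a difference from MRL/+ is not exact.

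In MRL/lpr against MRL/+, 7 of the 39 measured members changed. Stx1a, Unc13b and Rims2 rose 1.75-fold to 2.86-fold, and Doc2b, Syt17, Syt9 and Syt3 fell 1.97-fold to 4.32-fold. The 7 members are 17.9% of the list, beside 14.4% of all 17302 genes that passed limma at an adjusted p of 0.05, so the share among the release genes was near that of the array as a whole. By direction, 3 members were higher beside 6.03% of all genes, and 4 were lower beside 8.37%. The median log2 fold change of the members was 0.02 against -0.10 for all genes, with 20 members above 0 and 19 below. In 13 members the 4 mice of a group did not overlap with the 4 of the other, which is 33.3% beside 23.9% of all genes. Of these 13, 5 were higher (10.8% of all genes were) and 8 lower (13% of all genes). At an unadjusted limma p under 0.05 there were 16 members, beside 34.7% of all genes. The count of 7 was 14 without MRL/+ replicate 3, where 32.1% of all genes passed, and 5 without MRL/+ replicate 4, where 4.51% did.

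Between Fn14ko and MRL/+ 3 members fell and none rose, namely Syt4, Syn3 and Syt17. They are 7.69% of the list, where 0.954% of all genes passed limma in either direction, 0.237% higher and 0.717% lower. The count was 0 without MRL/+ replicate 4, without Fn14ko replicate 2, or without both Cy5 mice of MRL/+, where 8, 26 and 6 of the 17302 genes passed. It was 6 without MRL/+ replicate 3, where 12.5% of all genes did. At an unadjusted limma p under 0.05 the 3 fits with a count of 0 held 6, 8 and 4 of the 39 members, beside 1488, 2139 and 1337 of the 17302 genes. In MRL/lpr against Fn14ko, Stx1a was higher and Doc2b was lower, 5.13% of the list beside 4.57% of all genes (2.58% higher and 1.99% lower). The groups did not overlap for 6 members in Fn14ko against MRL/+, 1 higher and 5 lower, beside 13.5% of all genes (7.42% higher and 6.09% lower). Between MRL/lpr and Fn14ko they did not overlap for 4 members, 2 in each direction, beside 20.3% of all genes (8.91% higher and 11.3% lower). At an unadjusted limma p under 0.05 these comparisons held 10 and 8 members, beside 21.9% and 18.6% of all genes. By the criterion of the study's methods, which joins a fold change threshold set for each gene to the methods' t-test at an unadjusted p of 0.05, 7, 4 and 4 members passed in the 3 comparisons, beside 11.8%, 3.44% and 7.87% of all genes. In MRL/lpr against MRL/+ Unc13b did not meet it and Syn3 did. Unc13a met it in both comparisons of Fn14ko, as did Syt3 in MRL/lpr against Fn14ko, and the other members that met it are those that passed limma. The methods' t-test after Benjamini-Hochberg adjustment ended all calls but those of Stx1a, Rims2 and Syt17 in MRL/lpr against MRL/+. The medians of the members were 0.11 in Fn14ko against MRL/+ and 0.02 in MRL/lpr against Fn14ko, beside -0.10 and -0.07 for all genes. The comparisons share groups of mice, so the 3 counts are not independent of each other. With no filter on dim spots, 0 members passed limma in each comparison, where 22, 0 and 32 of 29149 genes did. In that setting 7, 4 and 2 of the 40 members had an unadjusted p under 0.05, beside 9125, 1683 and 2344 genes.

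**Figure D1:**
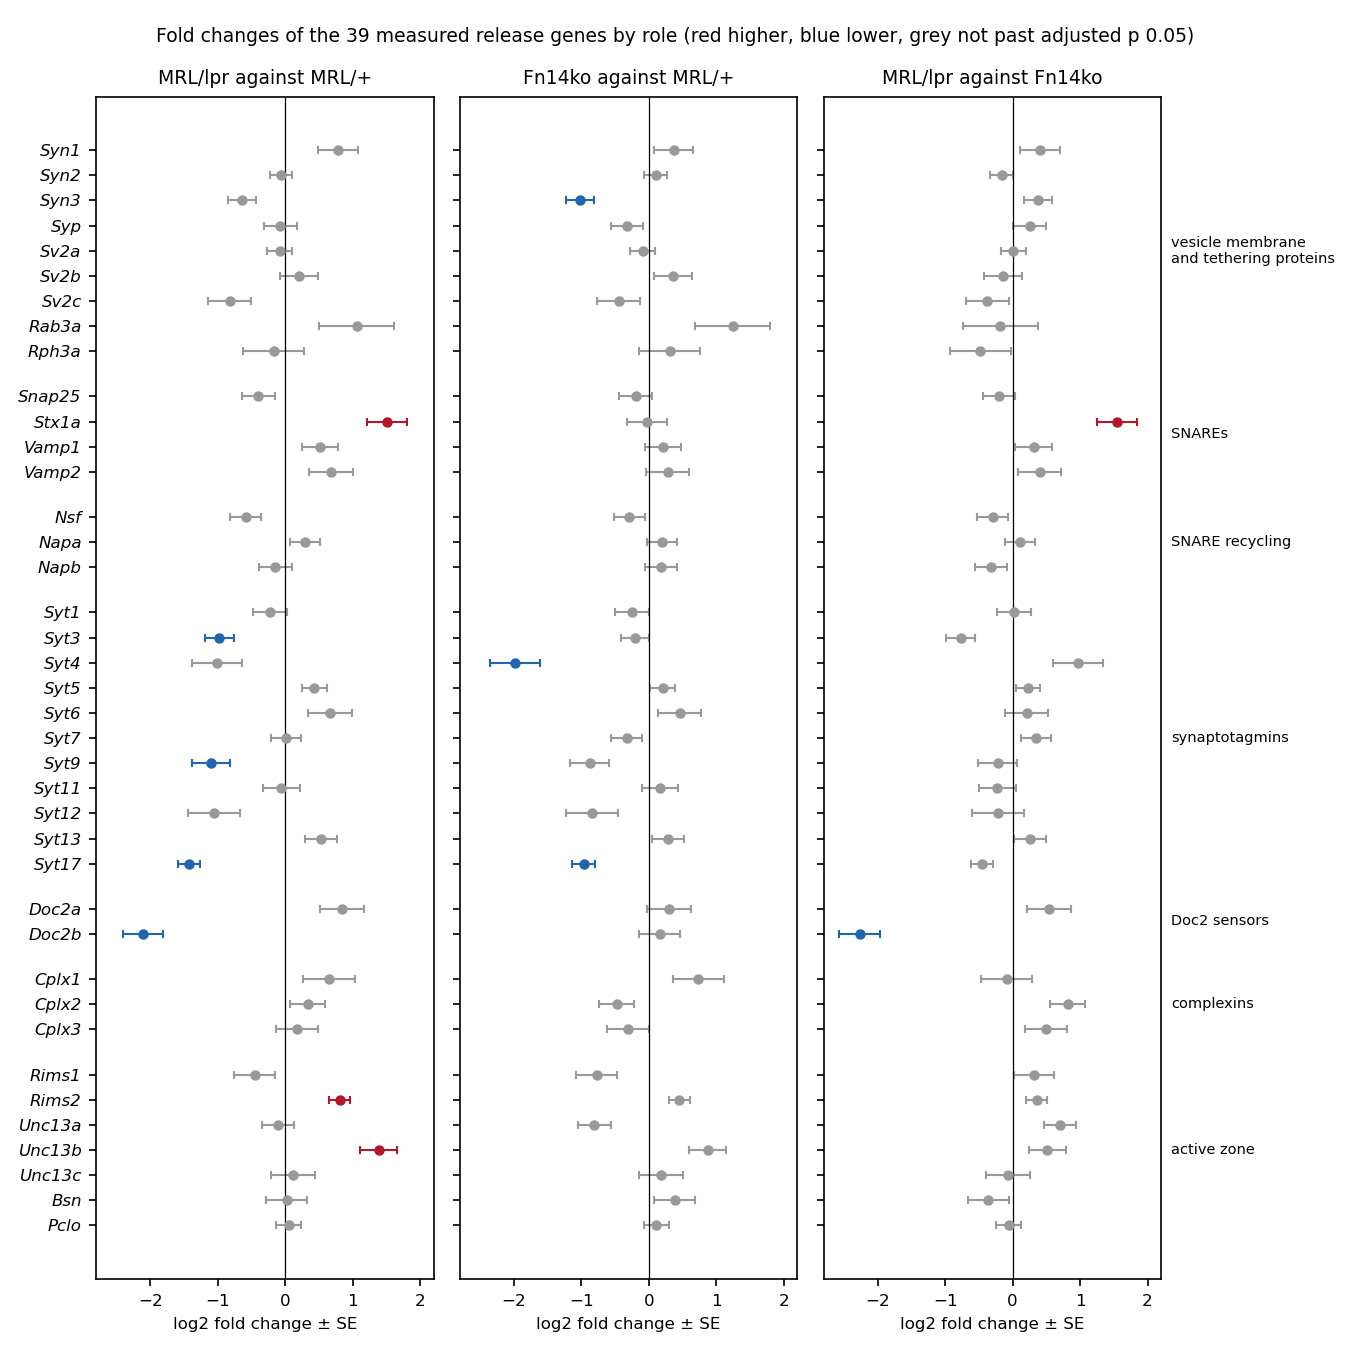
Log2 fold change (limma estimate with its standard error) of each of the 39 measured members in the 3 comparisons, grouped by role, with red and blue for members past an adjusted p of 0.05. Against MRL/+, 7 members are coloured for MRL/lpr and 3 for Fn14ko, and 2 are coloured in MRL/lpr against Fn14ko, while the rest scatter on both sides of 0.

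Among the 4 SNARE genes, only that for syntaxin 1A passed the limma test. The signal of Stx1a was 18.7, 18.2, 16.8 and 15.2 in the MRL/lpr mice, 5.75, 5.06, 9.98 and 4.18 in the Fn14ko mice, and 5.26, 4.35, 7.24 and 7.92 in the MRL/+ mice. All 4 MRL/lpr mice lay above all 8 others, and the Fn14ko and MRL/+ mice overlapped throughout. Stx1a was 2.86-fold higher in MRL/lpr than in MRL/+ (log2 fold change 1.51, standard error 0.30, adjusted p = 0.00655) and 2.91-fold higher than in Fn14ko (1.54, adjusted p = 0.00999). Fn14ko and MRL/+ differed by -0.03 on the log2 scale, with a 95% interval of -0.67 to 0.61, and by 0.30 within Cy3 and -0.35 within Cy5. The difference from MRL/+ was the same size in both dyes (1.52 in Cy3 and 1.51 in Cy5), and from Fn14ko it was 1.23 and 1.86.

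The other SNARE genes did not pass in any comparison. Snap25 had signals of 20.3, 33.3, 27.2 and 33.9 in MRL/lpr, 27.1, 39.8, 31.6 and 31.9 in the Fn14ko mice, and 31.0, 34.5, 48.6 and 36.2 in MRL/+. Its groups overlapped, with a log2 fold change of -0.40 in MRL/lpr against MRL/+ (95% interval -0.92 to 0.13, adjusted p = 0.245), which was -0.72 within Cy3 and -0.07 within Cy5. Vamp2 read 38.2, 32.5, 36.3 and 37.8 in MRL/lpr, 21.6, 22.9, 40.6 and 28.0 in the Fn14ko mice, and 26.6, 15.3, 42.2 and 15.2 in MRL/+. The 2 low MRL/+ values of Vamp2 were the Cy5 mice, and the log2 difference of MRL/lpr from MRL/+ was 0.15 within Cy3 and 1.20 within Cy5. With Agilent's processed signal the estimate for Vamp2 against MRL/+ changed sign (-0.52 in MRL/lpr and -0.88 in Fn14ko), so no direction is given for it. Vamp1, the second neuronal synaptobrevin, averaged 12.7 ± 2.83 in MRL/lpr and 8.68 ± 0.97 in MRL/+ (mean ± SD, n = 4 each), with an adjusted p of 0.18.

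Of the active zone genes, 2 of 7 rose in MRL/lpr against MRL/+, where 6.03% of all genes did. Unc13b encodes Munc13-2, a vesicle priming factor. Its signal was 2.40, 1.84, 2.78 and 1.36 in MRL/lpr, 1.22, 1.35, 2.01 and 1.22 in the Fn14ko mice, and 1.06, 0.619, 1.22 and 0.446 in MRL/+. Every MRL/lpr mouse exceeded every MRL/+ mouse, and the Fn14ko mice overlapped with MRL/lpr, 1 of them lying above 2 of the MRL/lpr mice, while the lowest Fn14ko mice were level with the highest MRL/+ mouse. The rise of Unc13b was 2.62-fold (log2 1.39, standard error 0.27, adjusted p = 0.00681). It did not pass without MRL/+ replicate 4 (1.19, adjusted p = 0.0543) or without both Cy5 mice of that group (1.08, adjusted p = 0.0786), the lowest 2 of the 12 mice. Fn14ko differed from MRL/+ by 0.87 on the log2 scale (adjusted p = 0.12), which was 0.46 within Cy3 and 1.28 within Cy5. The only probe of Unc13b was well above background in just 2 of the 4 MRL/+ mice, so its differences from MRL/+ have no exact size.

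Rims2 encodes RIM2, which ties vesicles and calcium channels to the active zone. It read 2.05, 2.04, 1.91 and 1.78 in MRL/lpr and 1.12, 1.18, 1.08 and 1.06 in MRL/+, tight groups that did not overlap. The 4 Fn14ko mice, at 1.48, 1.29, 1.90 and 1.45, all lay above the MRL/+ mice, and 1 of them reached into the range of MRL/lpr. Rims2 was 1.75-fold higher in MRL/lpr than in MRL/+ (log2 0.81, standard error 0.16, adjusted p = 0.00634), and 0.85 within Cy3 and 0.77 within Cy5. With 75th percentile scaling it was 0.58 and did not pass (adjusted p = 0.0584). The Fn14ko estimate of 0.45 against MRL/+ did not pass (adjusted p = 0.15), nor did that of MRL/lpr against Fn14ko (0.36, adjusted p = 0.243).

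Unc13a, which encodes Munc13-1, the main priming factor of cortical excitatory synapses, followed another pattern that did not pass after adjustment. Its signal was 0.592, 0.583, 0.569 and 0.523 in MRL/lpr, 0.435, 0.384, 0.330 and 0.266 in the Fn14ko mice, and 0.603, 0.693, 0.450 and 0.737 in MRL/+. In this mean of 2 probes all 4 Fn14ko mice lay below all 8 others, but in neither probe alone did they. On 1 probe an Fn14ko mouse, at 0.486, was above the highest MRL/lpr mouse at 0.405, and on the other an MRL/+ mouse, at 0.362, lay among the Fn14ko mice (0.279 to 0.415). Its log2 fold change was -0.81 for Fn14ko relative to MRL/+ (adjusted p = 0.109) and 0.70 for MRL/lpr relative to Fn14ko (adjusted p = 0.129). Relative to MRL/+, Fn14ko was at -0.46 within Cy3 and -1.16 within Cy5, and MRL/lpr at 0.16 and -0.37. In the limma fit of all 22419 single probes, 4.03% of which passed in MRL/lpr against Fn14ko, 1 probe of Unc13a was at 1.09 in that comparison (adjusted p = 0.0256) and the other at 0.17 (adjusted p = 0.821). The large scaffold genes Bsn (bassoon) and Pclo (piccolo) had log2 fold changes between -0.36 and 0.38 in the 3 comparisons, and Rims1 and Unc13c did not pass in any. Rims1 was lower in all 4 Fn14ko mice than in all 4 MRL/+ mice (0.323 ± 0.0967 and 0.539 ± 0.0987, adjusted p = 0.179).

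The Doc2 genes encode high-affinity calcium sensors of spontaneous and asynchronous release. Doc2b read 0.666, 0.899, 1.30 and 0.701 in the MRL/lpr mice, 5.05, 4.40, 3.14 and 4.22 in Fn14ko, and 3.50, 2.97, 5.48 and 3.34 in MRL/+. The highest MRL/lpr mouse was thus below the lowest of the other 8, which overlapped with each other. Doc2b fell 4.32-fold in MRL/lpr against MRL/+ (log2 -2.11, standard error 0.30, adjusted p = 0.00118), the largest fold change of any member in that comparison. Against Fn14ko it was 4.82-fold lower (-2.27, adjusted p = 0.00141). Fn14ko and MRL/+ differed by 0.16 (95% interval -0.49 to 0.81), with -0.14 within Cy3 and 0.45 within Cy5. The paralog Doc2a had the opposite sign, with 3.67 ± 0.531 in MRL/lpr, 2.63 ± 0.992 in the Fn14ko mice and 2.14 ± 0.769 in MRL/+, but its log2 fold change of 0.84 did not pass (adjusted p = 0.0956), and it was 1.18 within Cy3 and 0.49 within Cy5.

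Synaptotagmins were the most numerous family, and 3 of the 11 measured fell in MRL/lpr against MRL/+, where 8.37% of all genes fell, and 0 of the 11 passed as higher. Syt17, an atypical member that does not bind calcium, read 0.699, 0.492, 0.790 and 0.604 in MRL/lpr, 0.960, 0.834, 1.06 and 0.682 in the Fn14ko mice, and 1.64, 1.56, 1.97 and 1.69 in MRL/+. Both lpr-carrying groups lay wholly below MRL/+. Its signal fell 2.68-fold in MRL/lpr (log2 -1.42, standard error 0.16, adjusted p = 0.000511), the smallest adjusted p of any member, and 1.96-fold in Fn14ko (-0.97, adjusted p = 0.0212). The Fn14ko call was lost without MRL/+ replicate 4 (-0.93, adjusted p = 0.175) and without Fn14ko replicate 2 (-1.01, adjusted p = 0.0707), and within the Cy3 mice it was not made either (-0.83, adjusted p = 0.0736).

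Syt3 encodes a high-affinity calcium sensor at the plasma membrane. It read 3.84, 3.73, 3.23 and 3.07 in MRL/lpr, 5.17, 7.21, 5.72 and 5.65 in the Fn14ko mice, and 6.38, 5.59, 8.83 and 6.74 in MRL/+, so the MRL/lpr mice lay below all others. Against MRL/+ it was 1.97-fold lower (-0.98, standard error 0.21, adjusted p = 0.0106), and against Fn14ko the difference of -0.77 missed the threshold (adjusted p = 0.0577). Both probes printed above were lower in MRL/lpr than in MRL/+, by -1.30 and -0.84 on the log2 scale.

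Syt9, a fast calcium sensor, read 0.306, 0.325, 0.483 and 0.385 in MRL/lpr, 0.572, 0.472, 0.348 and 0.366 in the Fn14ko mice, and 1.09, 0.863, 0.519 and 0.797 in MRL/+. The fall in MRL/lpr was 2.14-fold (-1.10, standard error 0.29, adjusted p = 0.0244). It did not pass without MRL/+ replicate 4 (-0.97, adjusted p = 0.126), without MRL/lpr replicate 1 (-1.02, adjusted p = 0.0569), within the Cy3 mice (-0.97, adjusted p = 0.166) or with the processed signal (-0.59, adjusted p = 0.466). By limma, Fn14ko was at -0.88 against MRL/+ (adjusted p = 0.132), which did not pass. Nor did the difference of MRL/lpr from Fn14ko (-0.22, adjusted p = 0.757).

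Syt4, an activity-regulated synaptotagmin found on dense-core vesicles, was lowest in Fn14ko. Its signal was 0.624, 0.889, 0.416 and 0.781 there, 1.52, 0.835, 1.09 and 1.90 in MRL/lpr, and 2.30, 2.16, 3.66 and 2.40 in MRL/+. The MRL/+ mice lay above all others, and 1 MRL/lpr mouse fell among the Fn14ko mice. Syt4 fell 3.94-fold in Fn14ko against MRL/+ (-1.98, standard error 0.37, adjusted p = 0.0319), which did not pass without MRL/+ replicate 4 (-2.14, adjusted p = 0.175), without Fn14ko replicate 2 (-2.12, adjusted p = 0.0815) or without Fn14ko replicate 3 (-1.75, adjusted p = 0.0734). The Fn14ko difference was -2.51 within Cy3, where it passed (adjusted p = 0.000691), and -1.45 within Cy5. For MRL/lpr it was -1.01 in all mice (adjusted p = 0.0806).

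Syt1, the main fast calcium sensor of cortical synapses, did not pass. It read 47.2, 35.0, 31.9 and 38.1 in MRL/lpr, 32.6, 29.1, 41.8 and 48.7 in the Fn14ko mice, and 32.9, 38.4, 55.3 and 54.8 in MRL/+, with all groups overlapping. Its difference from MRL/+ on the log2 scale was -0.23 for MRL/lpr (95% interval -0.78 to 0.31) and -0.25 for Fn14ko (-0.79 to 0.30). Of the remaining synaptotagmins, Syt12 had a log2 fold change of -1.05 in MRL/lpr against MRL/+ (adjusted p = 0.0799), and Syt5, Syt6 and Syt13 had values of 0.43, 0.66 and 0.53 with adjusted p-values of 0.12 to 0.159. Syt7 and Syt11 were at 0.02 and -0.06.

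**Figure D2:**
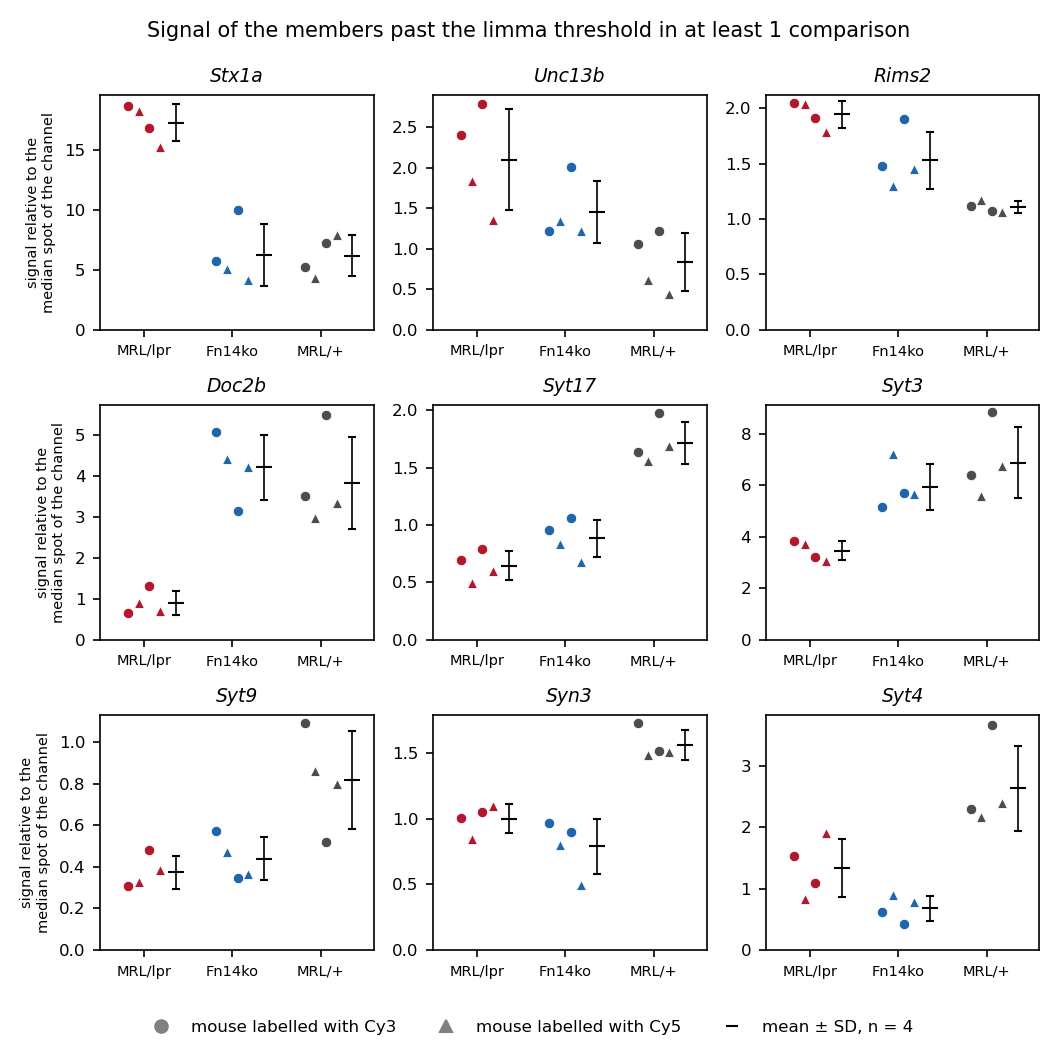
Signal (median spot of each channel set to 1, linear axis from 0) of the 9 members past the limma threshold in at least 1 comparison, with 1 point per mouse, shaped by dye, and the mean ± SD of each group of 4. The MRL/lpr mice of Stx1a lie between 15.2 and 18.7, above all other mice, and those of Doc2b between 0.666 and 1.30, below all other mice.

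Among the vesicle proteins, Syn3 fell in Fn14ko, and no other gene passed. Syn3 encodes the synapsin least expressed in the adult brain. It read 0.966, 0.802, 0.900 and 0.494 in Fn14ko, 1.01, 0.845, 1.05 and 1.10 in MRL/lpr, and 1.73, 1.49, 1.52 and 1.51 in MRL/+, with both other groups wholly below MRL/+. The fall in Fn14ko was 2.03-fold (-1.02, standard error 0.21, adjusted p = 0.0402), and the MRL/lpr estimate of -0.65 missed the threshold (adjusted p = 0.0548). The Fn14ko call was lost without MRL/+ replicate 4 (-0.97, adjusted p = 0.318), without Fn14ko replicate 2 (-1.06, adjusted p = 0.114) and without Fn14ko replicate 3 (-1.12, adjusted p = 0.0636), and it was absent within the Cy3 mice (-0.80, adjusted p = 0.0724). It was also lost when a mouse outside the comparison was left out, either MRL/lpr replicate 1 (-1.02, adjusted p = 0.0641) or 3 (-1.02, adjusted p = 0.0525).

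Syn1, the major synapsin, read 35.8, 45.7, 40.4 and 46.7 in MRL/lpr, 23.1, 39.2, 32.8 and 33.3 in the Fn14ko mice, and 29.3, 28.3, 28.1 and 15.3 in MRL/+. The MRL/lpr mice lay above all MRL/+ mice, but the log2 fold change of 0.78 did not pass (adjusted p = 0.088), and it was 0.41 within Cy3 and 1.15 within Cy5. With the processed signal it was -0.44. Syn2, Syp (synaptophysin) and Sv2a, all abundant vesicle proteins, had log2 fold changes between -0.32 and 0.25 in the 3 comparisons. Sv2c, the isoform of basal ganglia and some interneurons, was at -0.82 in MRL/lpr against MRL/+ (adjusted p = 0.0941), with -0.50 within Cy3 and -1.15 within Cy5.

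Rab3a, the main small GTPase of synaptic vesicles, its effector Rph3a (rabphilin) and the complexin Cplx1 varied by dye in MRL/+. These 3 were singled out after their values were seen. Rab3a read 38.2 and 50.6 in the Cy3 mice of MRL/+ and 12.7 and 7.49 in the Cy5 mice, against 38.3 to 63.6 in the other 8 mice. For Cplx1 the values were 31.3 and 48.3 in Cy3 and 12.6 and 13.4 in Cy5. Rph3a read 5.99 and 7.09 in Cy3 and 2.34 and 1.31 in Cy5. The difference of MRL/lpr from MRL/+ was thus 0.10 for Rab3a within Cy3 and 2.01 within Cy5, and -0.01 and 1.31 for Cplx1, which was at -0.75 with the processed signal (adjusted p = 0.0225). None of the 3 passed in any comparison. Within MRL/+, 6 members differed by over 1 on the log2 scale between the dyes (Rab3a, Rph3a, Cplx1, Vamp2 and Unc13b lower in Cy5, Sv2c higher), and within each of the other groups 0 members did. The 6 are 15.4% of the measured members, beside 19% of all genes in MRL/+ (3288 of 17302). Across the members, the differences from MRL/+ had the same sign in both dyes for 30 of 39 in MRL/lpr and 25 of 39 in Fn14ko, and for 33 of 39 in MRL/lpr against Fn14ko.

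**Figure D3:**
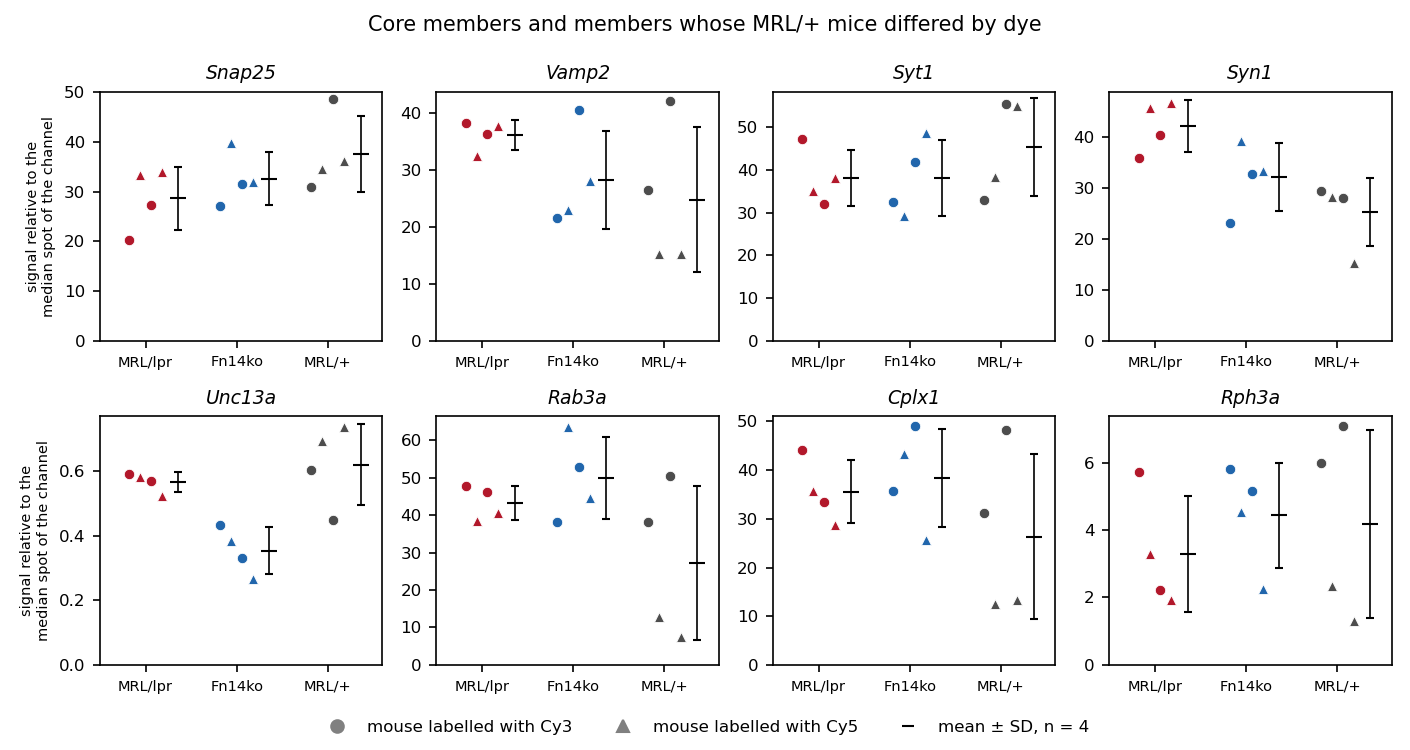
Signal (median spot of the channel = 1, linear axis from 0) of 5 core members and of 3 members whose MRL/+ mice differed by dye, with circles for Cy3 mice, triangles for Cy5 mice and the mean ± SD of each group of 4. In the MRL/+ column the Cy5 mice of Rab3a (12.7 and 7.49) and Cplx1 (12.6 and 13.4) lie below all other mice, and all 4 Fn14ko mice of Unc13a lie at or below 0.435.

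None of the 3 complexins passed. Cplx2, the main complexin of cortical excitatory neurons, was measured by 3 kept probes, of which 2 overlap on the genome and are not separate readings. In MRL/lpr against Fn14ko the 2 overlapping probes, whose sequences are not reported here and which were not tested for reading Cplx2 alone, were at 1.86 (adjusted p = 0.0229) and 2.02 (adjusted p = 0.00524) on the log2 scale in the limma fit of single probes, and the third was at 0.33 (adjusted p = 0.575). The gene mean, to which both overlapping probes contribute, was at 0.82 and did not pass (adjusted p = 0.102).

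Probes of a gene also disagreed for Nsf, which encodes the ATPase that recycles SNARE complexes. Its bright probe was at -0.62 in MRL/lpr against MRL/+ and its dim probe at 0.54, and neither passed, where 15% of all single probes did. The gene mean was 9.08 ± 1.07 in MRL/lpr, 11.3 ± 2.42 in the Fn14ko mice and 13.7 ± 2.62 in MRL/+, with a log2 fold change of -0.59 (adjusted p = 0.0978) and no overlap between MRL/lpr and MRL/+. Its adaptors Napa and Napb (alpha-SNAP and beta-SNAP) lay between -0.32 and 0.30 in the 3 comparisons. For Unc13a, 1 probe was at 0.47 and the other at -0.81 in MRL/lpr against MRL/+, and for Syt7 they were at -1.36 and 0.27, the first of these on a probe well above background in only 7 of 12 mice. In 5 of the 12 genes with several probes the log2 fold changes in this comparison differed by over 1.

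**Figure D4:**
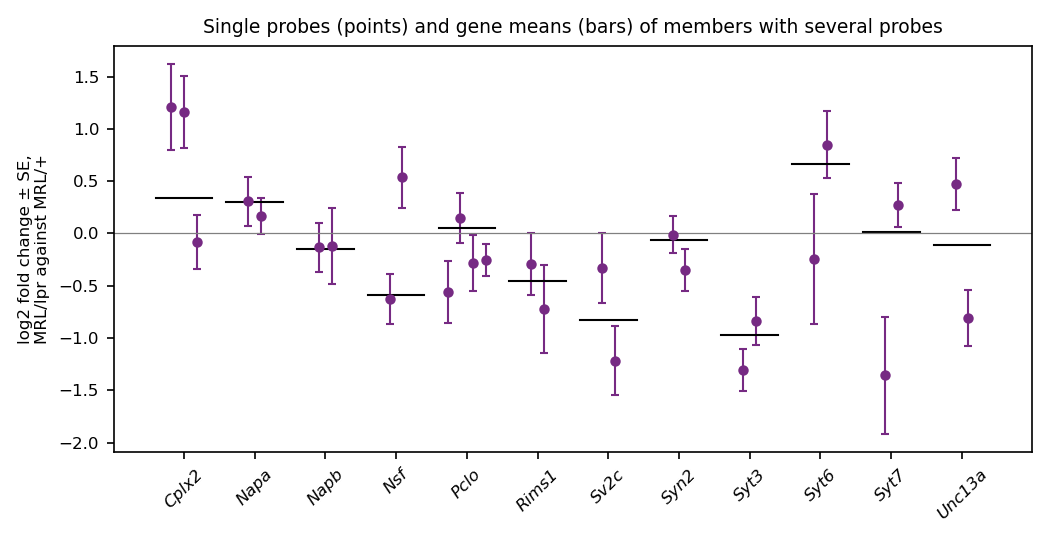
Log2 fold change in MRL/lpr against MRL/+ of each kept probe (points, with the standard error of the limma fit on single probes) and of the gene mean (horizontal bars) for the 12 members with several probes. The probes of Napa, Napb and Syn2 lie within 0.34 of each other, and those of Cplx2, Nsf, Syt6, Syt7 and Unc13a are over 1 apart, with 2 of the Cplx2 probes overlapping on the genome.

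The study also quantifies how much a gene varies among the mice of a group, as relative expression variability, a pooled coefficient of variation with a chi-square correction that depends on the number of probes of the gene. With 4 mice it is given as a description. Its median over the members was 31.8% for MRL/lpr, 47.3% for Fn14ko and 49.2% for MRL/+, beside 31.5%, 36.5% and 52.1% for all genes. In Fn14ko 27 of the 39 members lay above the median of all genes, against 20 in MRL/lpr and 17 in MRL/+. Unc13a varied least in MRL/lpr (9.57%), Syt5 in Fn14ko (17.1%) and Rims2 in MRL/+ (9.76%). The most variable were Rph3a in MRL/lpr (112%), Unc13c in Fn14ko (105%) and Rab3a in MRL/+ (162%), the last of these through its Cy5 mice.

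**Figure D5:**
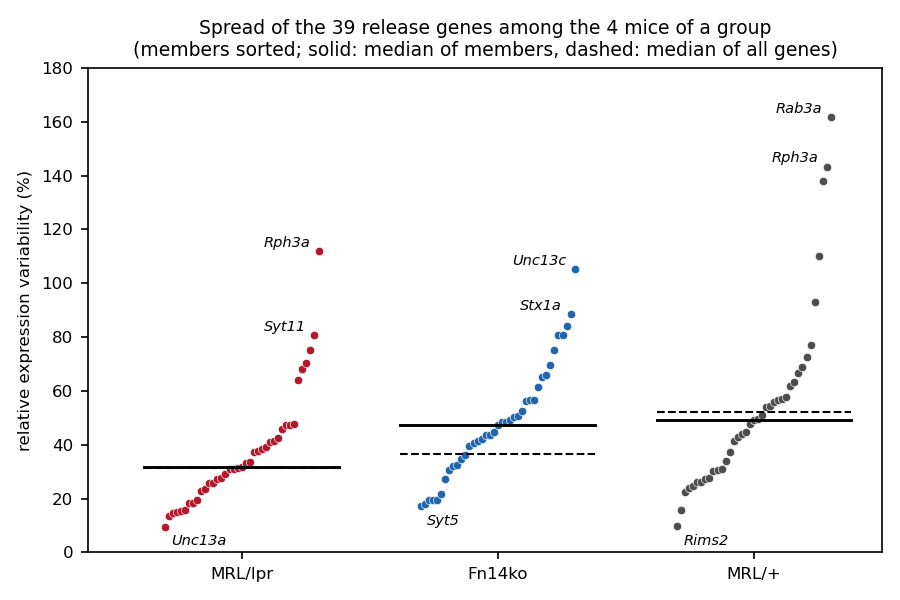
Relative expression variability (percent, linear axis from 0) of the 39 members within each group of 4 mice, sorted, with a solid line at the median of the members and a dashed line at the median of all 17302 genes. The 2 lines lie together in MRL/lpr (31.8% and 31.5%) and apart in Fn14ko (47.3% and 36.5%), and Rab3a reaches 162% in MRL/+.

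A list of 67 further genes of vesicle release and recycling gave 64 measured genes, of which 5 were higher and 4 lower in MRL/lpr against MRL/+, which is 14.1% beside the 14.4% of all genes. Among those higher were Rims3, a short RIM isoform (log2 fold change 2.37), Dnajc5, which encodes the vesicle chaperone CSP-alpha (1.59), Syt16 (1.497) and Ppfia1, which encodes a liprin scaffold (0.54). Among the lower ones were Ap2a2, a clathrin adaptor subunit (-2.70), Slc17a7, the vesicular glutamate transporter of cortical neurons (-1.08), and Rab3d (-0.88). In Fn14ko against MRL/+ Ap2a2 fell (-2.43) and nothing else of the list passed, and in MRL/lpr against Fn14ko Rims3 (1.71) and Dnajc5 (1.41) were higher.

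Marker lists were read for the cells that cortex could hold. All 10 neuronal markers were measured and well above background in all 12 mice, and their summed signal overlapped between groups (221 to 252 in MRL/lpr, 195 to 264 in Fn14ko, 198 to 292 in MRL/+). By limma, 1 of the 10 was higher and 1 lower in MRL/lpr against MRL/+, which is 20% beside 14.4% of all genes. In either comparison of Fn14ko 0 of the 10 passed. The 9 measured markers of cortical excitatory neurons summed to 37.1 to 44.1 in MRL/lpr, 51.8 to 71.9 in the Fn14ko mice and 58.8 to 85.3 in MRL/+, with 3 higher and 4 lower in MRL/lpr against MRL/+, which is 77.8% of the measured list beside 14.4% of all genes. In MRL/lpr against Fn14ko 2 of the 9 were higher and 2 lower, which is 44.4% beside 4.57% of all genes. The 8 inhibitory neuron markers summed to 84.4 to 91.7, 81.4 to 119 and 63.5 to 89.3 in the same order of groups, and 3 of them (37.5%) were higher in MRL/lpr against MRL/+. In MRL/lpr against Fn14ko 1 of the 8 (12.5%) was higher. The 4 blood markers summed to 118 to 301 in MRL/lpr, 39.7 to 121 in the Fn14ko mice and 34.1 to 61.7 in MRL/+, and 2 of them were higher in MRL/lpr against MRL/+ and 1 in MRL/lpr against Fn14ko. The 5 choroid plexus markers varied widely in every group (6.35 to 98.1, 13.1 to 179 and 16.3 to 264), with 1 lower in MRL/lpr than in each other group. The 9 striatal markers summed to 21.1 to 43.8 in MRL/lpr, 16.2 to 171 in the Fn14ko mice and 11.5 to 21.4 in MRL/+. Their range was thus wide in Fn14ko alone, where the mean was 58.6. By limma 0 of the 9 passed in any comparison, and only 2 were well above background in all 4 MRL/+ mice. The 6 oligodendrocyte markers summed to 41.3 to 61.8, 61.7 to 82.4 and 61.6 to 74.8 in the same order, with 1 lower in MRL/lpr than in MRL/+ and 2 lower than in Fn14ko. The 4 endothelial markers summed to 12.8 to 16.05 in MRL/lpr, 6.49 to 14.4 in the Fn14ko mice and 7.42 to 10.1 in MRL/+, so that MRL/lpr lay wholly above MRL/+, and 1 of them was higher by limma in that comparison. The 6 microglial markers (27.7 to 40.01, 25.8 to 38.0 and 28.6 to 37.5) and the 6 astrocyte markers (19.96 to 23.5, 22.1 to 25.6 and 18.2 to 25.4) overlapped between all groups, and 1 microglial marker was higher in MRL/lpr against MRL/+. Only 4 of 8 cerebellar markers were measured, with sums of 2.71 to 11.02, 3.77 to 4.21 and 4.23 to 4.76, and 1 of them was lower in MRL/lpr against MRL/+. Beside these marker counts, 6.03% of all genes were higher and 8.37% lower in MRL/lpr against MRL/+. In MRL/lpr against Fn14ko 2.58% were higher and 1.99% lower. None of these marker levels was entered into a fit, and their part in the differences of the release genes was not tested.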

How the data were processed

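Total RNA of 12 cortices was labelled with Cy3 or Cy5 and hybridised, 2 mice of 1 group per array, to 6 Agilent arrays of 44397 spots. The authors deposited the scanner output of each array, in which every spot has a mean foreground intensity, a local background intensity, a processed intensity and, per the file headers, 0 or 1 flags from Agilent Feature Extraction 12.1.0.3. Intensities were not normalized by the authors in these files. Array precision is limited by the 4 mice a group.

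Background was corrected with normexp (offset 50, limma 3.58.1 in R 4.3.3). Spots marked as uneven or outliers, or, in at least 1 of the 12 mice, below 2 times their local background, were left out (24255 of 43020 non-control spots were kept), as the study's methods ask. The study's iterative normalization to the median gene was replaced by dividing each channel by its median spot, and spots of a gene were averaged. The log2 signals of 17302 genes were fitted with limma by group and dye, with array as a random block (correlation 0.316), and p-values were adjusted by Benjamini-Hochberg over all genes at 0.05. The members, their roles, the related genes and the markers were chosen with earlier results of these data known. Values in each mouse are given for the members past the threshold and for Snap25, Stx1a, Vamp2, Syt1, Syn1 and Unc13a. Slide and group cannot be told apart. Python 3.11.15 with pandas 2.3.3 and matplotlib 3.10.9 drew the figures. Some related genes that passed and some probe sequences are not reported here.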

Additional observations from a re-analysis of the deposited data

Results flagged for a closer look

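Each of the 39 members was checked in each group of 4 mice for a mouse far from the other 3, by Dixon's ratio of the gap to the whole range. Of 117 such sets 3 were past the critical value, where chance gives 1 in 20, and all 3 were in MRL/+. Sets of the same mice are not independent, so this count was not tested against chance. The ratio looks for 1 mouse apart from the other 3, so it cannot flag a group split evenly by dye. For Syn1 the lowest mouse was MRL/+ replicate 4, at 15.3 beside 28.1 for the nearest mouse (ratio 0.932). For Bsn it was the same mouse, at 6.50 beside 13.3 (ratio 0.886). For Syn3 the highest mouse was MRL/+ replicate 1, at 1.73 beside 1.52 (ratio 0.877). MRL/+ replicate 4 is a Cy5 mouse of the slide whose dark control spots were bright, and the part of this in the Syn1 and Bsn values was not tested.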

How the results depend on the processing

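The 12 calls of single members kept their sign in every alternative limma fit that measured the gene (26 or 27 fits). At an adjusted p of 0.05, Stx1a and Doc2b passed in 26 of 27 in both comparisons of MRL/lpr, and Syt17 and Syt3 in 26 of 27 against MRL/+, with Rims2 in 24, Unc13b in 23 and Syt9 in 20 of 26. In Fn14ko against MRL/+, Syt4 and Syt17 passed in 22 of 27 and Syn3 in 17 of 26. All 12 were lost with no filter on dim spots. Among all 39 members, a sign turned together with a call with the processed signal alone, for 3 members: relative to MRL/+, Vamp2 was at -0.52 for MRL/lpr and -0.88 for Fn14ko, Syn1 at -0.44 and -0.69, and Cplx1 at -0.75 for MRL/lpr. For the 14 members given in every mouse there were 1215 alternative values, single probes and the methods' t-test included. Of these, 1077 stayed on the same side of the threshold, 89 passed anew and 45 no longer passed. The other 4 turned sign together with a call. Turns of sign without a call were not counted apart. Stx1a in Fn14ko against MRL/+, for example, was negative in 21 of 29 settings and positive in 8.

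The counts moved more. As reported, 2492, 165 and 790 genes and 7, 3 and 2 members passed in MRL/lpr against MRL/+, Fn14ko against MRL/+ and MRL/lpr against Fn14ko, in this order below. With plain background subtraction it was 5140, 2837 and 2849 genes and 14, 10 and 7 members. With no array block it was 5189, 1881 and 1782 genes and 14, 7 and 6 members. With loess and Aquantile normalization it was 5668, 1531 and 3482 genes, with 17 members in MRL/lpr against MRL/+ and 8 in MRL/lpr against Fn14ko. With no filter on dim spots it was 22, 0 and 32 genes and 0 members by limma in each. With the processed signal it was 16, 5 and 5 members, with 1012 genes in Fn14ko against MRL/+ and 1889 in MRL/lpr against Fn14ko. The Fn14ko count against MRL/+ was 604 genes with 75th percentile scaling, 294 with no dye term, 365 in a fit of only the 8 mice compared and 805 of only 7027 genes (11.5%) with spots well above background in all mice. In MRL/lpr against Fn14ko the member count was 4 with 75th percentile scaling (5.47% of all genes), 4 with probes averaged on the log2 scale (4.54%) and 5 of 27 with spots well above background (16.1% of 7027 genes). In the Cy3 mice alone, 1356 and 469 genes passed in the 2 comparisons of MRL/lpr, and 1 member and 166 genes passed in Fn14ko against MRL/+. Both of the next settings were chosen after seeing the data. In the Cy5 mice alone it was 4549, 4787 and 509 genes, with 13 and 11 members against MRL/+. Without the Cy5 mice of MRL/+ it was 871 and 6 genes against MRL/+, with 0 members in Fn14ko by limma and 4 at an unadjusted p under 0.05.

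By the methods' t-test, 4218, 2622 and 3818 genes and 15, 7 and 6 members had an unadjusted p under 0.05. After Benjamini-Hochberg adjustment 721, 2 and 181 genes and 4, 0 and 0 members were past 0.05, the 4 being Stx1a, Rims2, Syt17 and Syn3. With a replicate block in place of dye and array, 6290, 2012 and 1968 genes and 16, 7 and 5 members passed. Mice of 2 groups with the same replicate number did not all deviate together (correlations of 0.0814 to 0.340, -0.0276 to 0.721 and -0.132 to 0.281), and within a dye they correlated at 0.809 and 0.391 for Fn14ko and MRL/+, 0.0293 and 0.0570 for MRL/lpr and MRL/+, and 0.0404 and 0.0845 for MRL/lpr and Fn14ko. They share a number and a dye, and no source pairs single mice across groups. By their barcodes, the slides of Fn14ko and MRL/+ have consecutive numbers, and the slide of MRL/lpr is numbered apart from both. The part of the slides in these correlations was not tested. The cause of these changes was not tested.

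Leaving out 1 mouse gave 781 to 5551, 8 to 2164 and 357 to 1002 genes, and 5 to 14, 0 to 6 and 2 to 3 members. The extremes against MRL/+ came without MRL/+ replicate 4 (lowest) and MRL/+ replicate 3 (highest). The Fn14ko count was also 86 and 93 genes without MRL/lpr replicates 1 and 3, 866, 26 and 44 without Fn14ko replicates 1, 2 and 3, and 337 without MRL/+ replicate 1, with 5, 0 and 1 members without those Fn14ko mice. MRL/lpr against MRL/+ was 1622 genes without Fn14ko replicate 2. MRL/lpr against Fn14ko was 357 without MRL/+ replicate 4, 484 without MRL/lpr replicate 1, 385 without Fn14ko replicate 2 and 501 without MRL/+ replicate 3.

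The median log2 fold change of the members was 0.02, 0.11 and 0.02 as reported, and -0.06 to 0.06, 0.05 to 0.11 and 0.02 to 0.12 with 1 mouse left out. It was -0.18, -0.057 and -0.13 with loess and Aquantile, and 0.58, 0.83 and -0.11 with no filter. Against MRL/+ it was -0.22 and -0.14 with 75th percentile scaling, -0.44 and -0.29 with the processed signal, and -0.18 and -0.063 with spots well above background. In Fn14ko against MRL/+ it was -0.061 in the Cy3 mice, -0.032 without the Cy5 mice of MRL/+ and -0.0066 with probes averaged on the log2 scale. Its sign thus turned under several of these settings, not the scalings alone. The median of all genes moved from -0.10 to -0.34 and from -0.10 to -0.35 against MRL/+ with 75th percentile scaling, and from -0.10 to 0.04 in Fn14ko against MRL/+ and from -0.07 to -0.19 in MRL/lpr against Fn14ko with loess and Aquantile. The share of higher genes among those called, 41.9%, 24.8% and 56.5%, became 25.5%, 42.8% and 23.0% with loess and Aquantile, and 23.9% and 14.9% against MRL/+ with 75th percentile scaling. In Fn14ko against MRL/+ it was 41.0% with background subtraction and 12% with the processed signal.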
